A study of Drosophila melanogaster with 48 samples.

Results

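Brain RNA of W422X males of Drosophila melanogaster was compared between week 3 and week 0 of age, with 3 libraries at each age. The 6 libraries were chosen by their labels for genotype, sex and age, out of 48 libraries in all. The allele name stands for a stop codon in place of a tryptophan in the NAGLU protein. Both age groups carry it and differ in age, and the labels do not say from which event the weeks were counted. Each library was made from total RNA of 20 pooled brains after depletion of ribosomal RNA. For comparison, the change with age was also taken from 3 libraries at week 3 and 3 at week 0 in each of W422X females, NAGLU KO males, Y160C males (an amino acid change in the same protein) and WG2 males. No NAGLU change is given for WG2, whose relation to the mutant lines is not stated. The labels give neither the way the alleles were made nor whether replicates came from separate crosses, so p-values measure the spread between pools of brains.

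Naglu encodes a lysosomal enzyme that removes N-acetylglucosamine from the end of heparan sulfate chains, and loss of the human enzyme causes mucopolysaccharidosis IIIB, in which heparan sulfate builds up in lysosomes and the brain degenerates. The adult fly brain depends on mitochondrial respiration to fuel neurons, and on glia, which take up trehalose from the blood and pass fuel to them. Ageing flies are known for falling RNA of the respiratory chain and for rising RNA of stress and immune genes.

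Total counts ran from 15388157 to 22397921 in the 6 libraries, against 8690199 to 55801160 over the series. Between 9939 and 10362 genes reached 1 CPM (counts scaled to a library of standard size) in them. In 9 libraries of other groups this number was above 12000, including 2 of the 3 KO male week 3 libraries and 1 W422X female week 3 library. The neuronal marker elav lay between 665 and 725 CPM at week 3 and between 629 and 754 CPM at week 0, and the male dosage compensation RNA roX1 between 4658 and 5561 CPM in all 6 libraries. The photoreceptor opsin ninaE was uneven, with 490, 255 and 668 CPM at week 3 and 437, 25.7 and 97.8 CPM at week 0, and its part in the results was not tested. Genes of the mitochondrial genome took 0.622% to 1.09% of counts at week 3 and 0.813% to 1.42% at week 0. No pair of replicates agreed within sampling noise (chi-square per gene of 4.33 to 56.2).

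Naglu RNA itself (FBgn0014417, 2L:8408888-8411868 in BDGP6.54) did not pass the test for age. It stood at 6.76, 8.91 and 7.31 CPM at week 3 and at 5.48, 6.27 and 5.52 CPM at week 0 (log2 fold change 0.41 ± 0.21, SE; adjusted p 0.36). The groups did not overlap. At both ages it lay below WG2 males, which had 25.5 ± 1.92 CPM at week 3 and 22.4 ± 4.57 CPM at week 0 (SD, n = 3 each).

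In W422X male brains, ageing to week 3 went with lower RNA of the respiratory chain, of synaptic vesicle proteins and of transmitter enzymes, lower collagen IV and lower insulin-like peptide Ilp3. It went with higher RNA of the capsid-like Arc genes, of the iron carrier Tsf1, of several neuropeptides, of chaperones and the stress factor Xrp1, and of many small nucleolar RNAs. A gene is called here at a Benjamini-Hochberg adjusted p under 0.05 in edgeR's quasi-likelihood test over 15807 genes. By that rule 820 genes (5.19%) were called, 529 higher (3.35%) and 291 lower (1.84%). At least a 2-fold change was seen in 222 of them (1.4%), 174 higher and 48 lower. The groups of 3 did not overlap for 798 of the 820, and for 28.5% of all genes tested. The median log2 fold change over all genes tested was -0.039. With 1 library left out, the count was 338 without week 3 replicate 1, 531 without replicate 2 and 430 without replicate 3. It was 506 without week 0 replicate 1 and 449 without replicate 2, and without week 0 replicate 3 there were 263 higher and 159 lower. Without the 9 libraries of other groups named above it was 1918, among them all 820. Size factors of the RLE kind in place of TMM gave 630 higher and 718 lower, which is 46.7% higher against 64.5% with TMM.

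**Figure D1:**
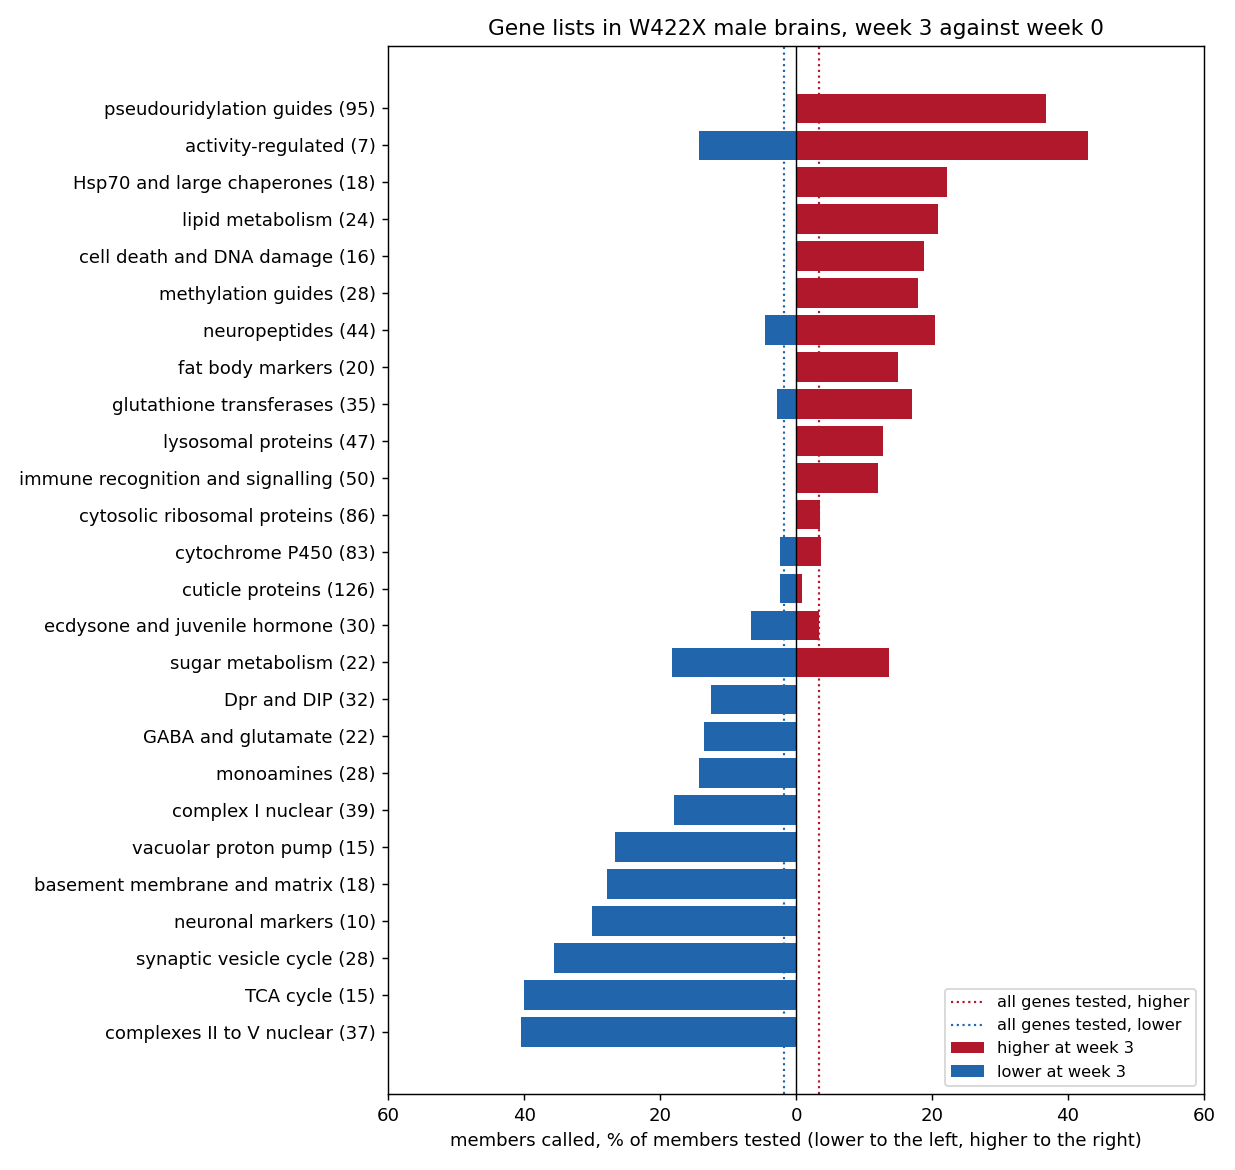
Share of the tested members of each gene list that was called in W422X males, week 3 against week 0, with higher members to the right and lower members to the left, in %; the number tested is in brackets and dotted lines give the same shares over all genes tested (3.35% higher, 1.84% lower). The dotted lines are not matched to the level of the list members, and abundant genes fell more often. Lists with at least 5 members tested and at least 3 called are shown: respiratory, citric acid cycle and synaptic lists stand at the lower end and snoRNA, activity-regulated and chaperone lists at the upper end.

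Abundant genes fell more often than they rose. Of 152 genes with a mean above 1000 CPM, 24 fell (15.8%) and 3 rose (1.97%). Of 2025 genes between 100 and 1000 CPM, 104 fell (5.14%) and 62 rose (3.06%). Of 4247 genes between 10 and 100 CPM, 121 fell (2.85%) and 269 rose (6.33%). Of 5668 genes under 1 CPM, 0 fell. The share over all genes (1.84% lower) is therefore not matched in level to lists of abundant genes. Among the most abundant that fell was Atpalpha, the catalytic subunit of the sodium pump, with 6264, 6362 and 6605 CPM at week 3 and 12874, 11322 and 12450 CPM at week 0 (-0.93 ± 0.16, adjusted p 0.00031). Its partner subunit nrv3 also fell (-0.90, adjusted p 0.0015). Atpalpha was picked out after its values were seen.

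Nuclear genes of the respiratory chain fell together. Of 37 tested genes of complexes II to V, 15 fell, and all 37 had a negative log2 fold change, with a median of -0.689 against -0.039 over all genes. ATPsynC, which encodes the rotor ring of ATP synthase, had 816, 822 and 853 CPM at week 3, against 1913, 1367 and 1544 CPM at week 0 (-0.95 ± 0.18, adjusted p 0.0011). Cytochrome c (Cyt-c-p) had 198, 201 and 220 CPM at week 3, against 485, 351 and 370 CPM at week 0 (-0.96 ± 0.19, adjusted p 0.0015). For both genes the 3 week 3 libraries lay close together and well below the lowest week 0 library, and week 0 replicate 1 was the highest. The gene RNaseP:RNA lies inside ATPsynC on the same strand and rose (0.93, adjusted p 0.047), so that reads of the pair may be shared. Another 7 ATP synthase genes fell, namely ATPsyndelta, blw, ATPsyngamma, ATPsynD, ATPsynB, sun and ATPsynF, as did the cytochrome oxidase subunits COX6B, COX7C, COX5A, COX7A and levy and the complex III core subunit UQCR-C2. Of these 15, the change ranged between -0.96 and -0.67. With 1 library left out, 4 to 15 of the list were called, with 4 without week 3 replicate 1 or without week 0 replicate 1 and 6 without week 3 replicate 2. The number was 30 without the 9 libraries of other groups.

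In complex I, the entry point of the chain, fewer genes were called. Of 39 tested genes 7 fell, among them ND-19 (-0.83, adjusted p 0.0071), ND-18 (-0.73) and ND-24 (-0.65), and the median was -0.408. At most 4 were called with 1 library left out, fewest without week 3 replicate 2, and 24 without the 9 libraries. In the citric acid cycle 6 of 15 fell (12 without the 9 libraries), including citrate synthase kdn (-0.82 ± 0.17, adjusted p 0.0029), the isocitrate dehydrogenase subunit Idh3a (-0.75) and Pdhb of pyruvate dehydrogenase (-0.73). The mitochondrial phosphate carrier Mpcp2, picked out after its values were seen, had 616, 676 and 681 CPM at week 3 and 1617, 1208 and 1240 CPM at week 0 (-1.04 ± 0.21, adjusted p 0.0016). Of 15 genes of the mitochondrial genome only mt:CoIII was called, with 1394, 1824 and 1381 CPM at week 3 and 3241, 2392 and 3753 CPM at week 0 (-1.03 ± 0.28, adjusted p 0.024). Its call held only without week 0 replicate 2 or week 3 replicate 2 among the 6 libraries left out in turn. The other 14 were not called. Of these mt:CoI, looked up for comparison, had 2933, 4190 and 2811 CPM at week 3 and 3679, 2982 and 4913 CPM at week 0, so that the ages overlapped (-0.22, adjusted p 0.83).

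Sugar genes split. Glycolysis lost RNA at the steps of aldolase Ald1 (-0.71), Gapdh1 (-0.83) and pyruvate kinase PyK (-0.74, adjusted p 0.018), and the glycerol phosphate shuttle enzyme Gpdh1 fell too, with 196, 180 and 211 CPM at week 3 and 416, 325 and 384 CPM at week 0 (-0.94 ± 0.18, adjusted p 0.001). Trehalase (Treh), which splits the blood sugar trehalose, rose instead. It had 593, 615 and 555 CPM at week 3 and 341, 221 and 292 CPM at week 0 (1.05 ± 0.21, adjusted p 0.0019), so that every week 3 library lay above every week 0 library. Lactate dehydrogenase Ldh (1.05, adjusted p 0.026) and the trehalose transporter Tret1-1 (0.53, adjusted p 0.039) also rose. Of 22 sugar genes tested, 3 rose and 4 fell. With 1 library left out 1 or 2 were higher and 1 to 4 lower, with 1 lower without week 0 replicate 1 or week 3 replicate 1 or 2, and without the 9 libraries 12 were lower.

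**Figure D2:**
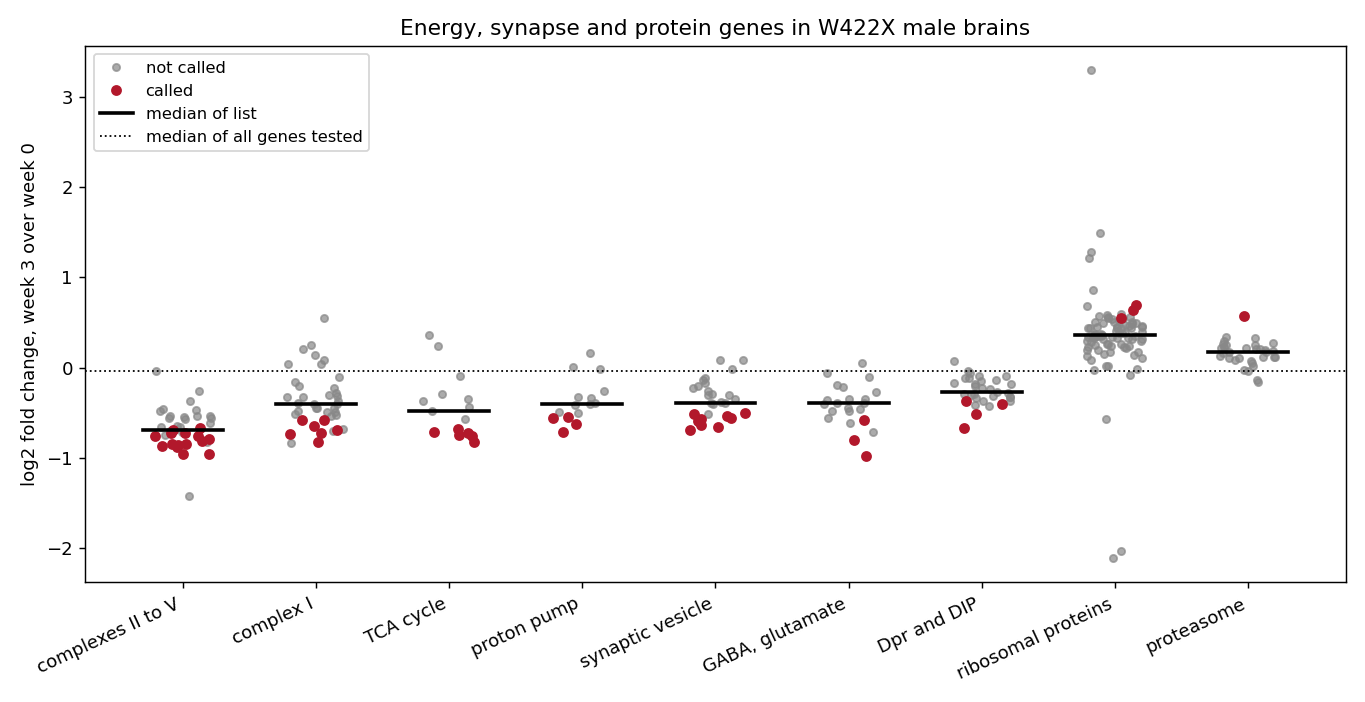
Log2 fold change with age (week 3 over week 0) of every tested member of 9 gene lists in W422X males, with called genes in red, others in grey and the list median as a bar. All 37 genes of complexes II to V lie below zero, with a median of -0.689, while 80 of 86 cytosolic ribosomal protein genes lie above it, with a median of 0.364; the dotted line is the median of all genes tested (-0.039).

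Genes of the synapse fell as well. Of 28 tested genes of the synaptic vesicle cycle 10 fell and 26 had a negative sign, with a median of -0.39. The vesicle-associated protein Sap47 had 1933, 2084 and 2001 CPM at week 3 and 2985, 3127 and 3410 CPM at week 0 (-0.66 ± 0.14, adjusted p 0.0031). The membrane fusion proteins Syx1A (-0.51) and nSyb (-0.56), their partner Rop (-0.69), the calcium sensor Syt1 (-0.53), the fusion clamp cpx (-0.60) and the fission dynamin shi (-0.57) fell by similar amounts. Between 1 and 7 of the list were called with 1 library left out, 1 without week 3 replicate 1 and 2 without week 0 replicate 3, and 18 without the 9 libraries.

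Transmitter genes fell in several systems. Gad1, which makes GABA from glutamate, had 771, 819 and 835 CPM at week 3 and 1607, 1494 and 1669 CPM at week 0 (3L:4074077-4088744; -0.98 ± 0.17, adjusted p 0.00048). The 2 ages stood far apart. Gad1 overlaps CG14989, which also fell (-0.53, adjusted p 0.028), on the other strand. The vesicular GABA transporter VGAT (-0.59) and glutamate dehydrogenase Gdh (-0.80) fell too, so that 3 of 22 GABA and glutamate genes were called and 21 had a negative sign. Among 28 monoamine genes 4 fell, including the dopamine synthesis enzyme ple (tyrosine hydroxylase), the serotonin transporter SerT (-0.64, adjusted p 0.0061) and the vesicular transporter Vmat (-0.52). The gene ple had 51, 46 and 55.7 CPM at week 3 and 84.5, 76.8 and 86.2 CPM at week 0 (-0.70 ± 0.13, adjusted p 0.00064). Of 16 genes of acetylcholine signalling, ChAT, which makes acetylcholine (-0.48), and the choline transporter ChT (-0.55) fell. By contrast the vesicular glutamate transporter VGlut, looked up after the others were seen, differed by 0.05 and was not called (adjusted p 0.95). Within the Dpr and DIP surface proteins, which guide partner choice between neurons, 4 of 32 fell, DIP-zeta the most (-0.67 ± 0.12, adjusted p 0.00052), and 31 had a negative sign. With any 1 library left out 2 of the list were called. The monoamine count was 2 when any 1 library other than week 0 replicate 1 was left out, and of the acetylcholine genes at most 1 was called with 1 library left out. Without the 9 libraries the lower genes were 11 for GABA and glutamate, 8 for monoamines, 9 for acetylcholine and 12 for Dpr and DIP.

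The general neuronal marker list gave 3 called of 10, nrv3, nSyb and Syt1, all lower. All 3 are already named above, nSyb and Syt1 among the synaptic vesicle genes. The calls of this list are therefore not a separate reading of neurons. With 1 library left out 1 or 2 were called, with 1 without week 0 replicate 3 or week 3 replicate 1 or 2. Its summed level was 15232 to 15671 CPM at week 3 and 19144 to 20964 CPM at week 0, and no list marker was at 0, while elav differed by -0.00307 on the log2 scale (adjusted p 0.997). Of 19 glial markers (1 or 2 higher with 1 library left out), wrapper, a surface protein of glia that wrap neurons, and Tret1-1 rose. The sum ran from 5616 to 5968 CPM at week 3 and from 5038 to 9375 CPM at week 0. The list median was 0.021. Markers not called stood on both sides, as with Eaat1 (-0.72, adjusted p 0.056), Mdr65 (-0.60, adjusted p 0.10), Gli (0.76, adjusted p 0.11) and repo (0.39, adjusted p 0.27). In other fits 1 was lower without week 0 replicate 2, and 2 were lower with RLE factors or without the 9 libraries. The gene wrapper had 132, 127 and 134 CPM at week 3 and 81.8, 74.1 and 65.9 CPM at week 0 (0.82 ± 0.17, adjusted p 0.0017). In bulk brains fewer cells of a type and less RNA per cell cannot be told apart.

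**Figure D3:**
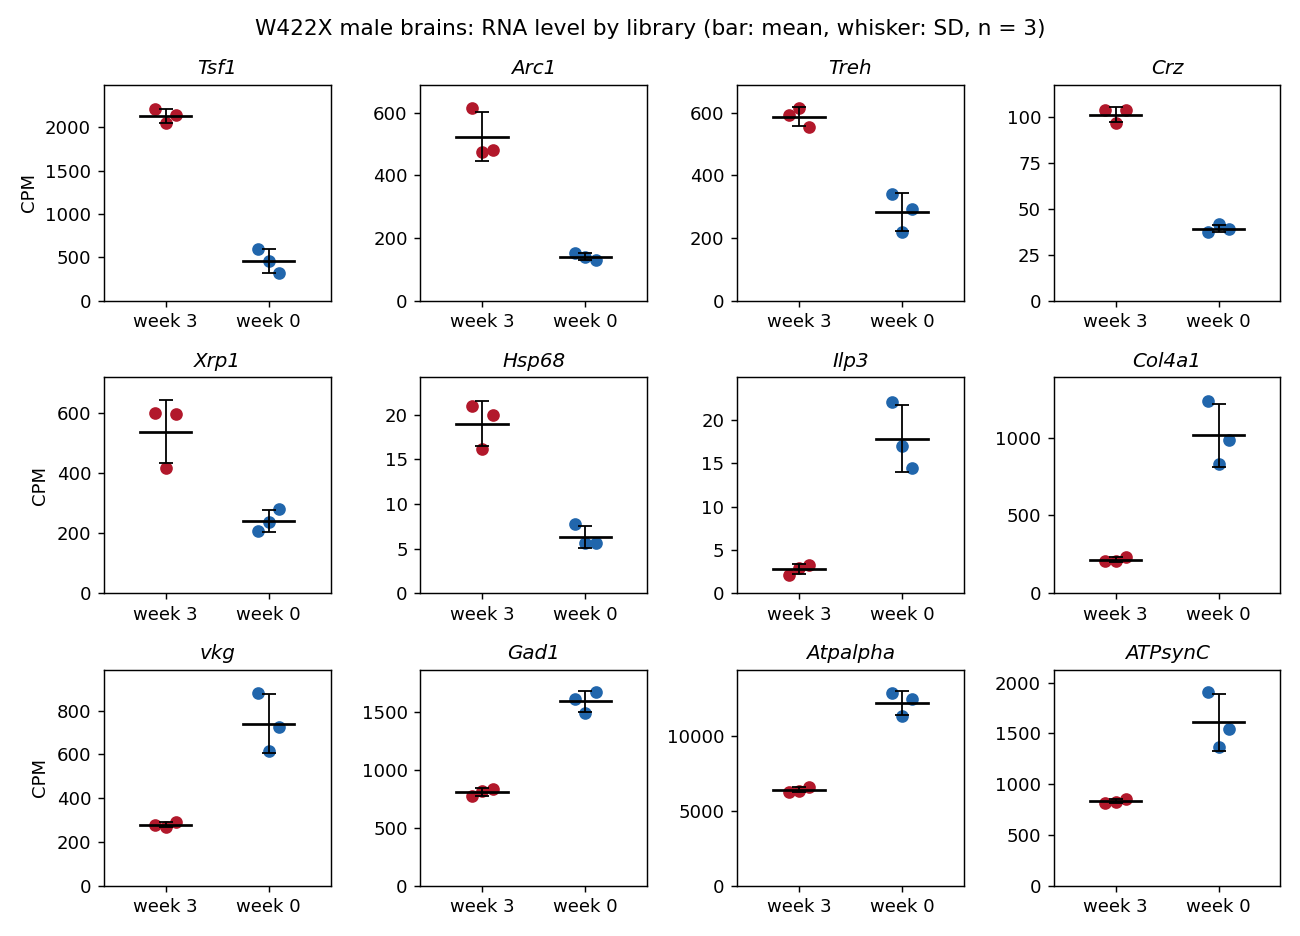
CPM of 12 genes in each W422X male library, week 3 on the left and week 0 on the right, with every axis starting at 0; the bar is the mean and the whisker the SD (n = 3). For each of the 12 genes all week 3 points lie on one side of all week 0 points.

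Genes of the basement membrane, the collagen sheet around the brain, included 2 collagen genes with large losses. The collagen IV chains Col4a1 and vkg are neighbours (2L:5029609-5037279 and 2L:5012144-5028191). Col4a1 had 205, 207 and 234 CPM at week 3 and 1234, 830 and 987 CPM at week 0 (-2.24 ± 0.25, adjusted p 2e-07). The second chain, vkg, had 278, 266 and 291 CPM at week 3 and 883, 617 and 724 CPM at week 0 (-1.41 ± 0.22, adjusted p 5.4e-05). In both genes the week 3 libraries were low and even. The laminin gamma chain LanB2 (-1.33, adjusted p 0.0017) and the peroxidase Pxn, which crosslinks collagen IV (-0.73, adjusted p 0.0072), also fell, and 5 of 18 list members were called (3 without week 3 replicate 1). The median of the list was 0.047 and 9 of the 18 had a positive sign. Collagen IV is made by haemocytes and fat body. Of 19 haemocyte markers only Pxn was called, and the haemocyte gene Hml had 67.3, 96.6 and 77.3 CPM at week 3 and 82.6, 49.2 and 57.6 CPM at week 0. The list summed to 443 to 516 CPM at week 3 and 558 to 667 CPM at week 0. That sum includes Pxn, with 210, 236 and 237 CPM at week 3 and 390, 403 and 343 CPM at week 0. The lower sum at week 3 is therefore not a reading apart from the fall of Pxn. The part of these cells in the fall of collagen was not tested.

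A second set of low genes stood near 1 CPM or below at week 3. The cuticle protein genes Cpr62Bb and Acp1, together with CG7203, CG13360, CG16820, CG10553 and CG4000, had the 7 lowest fold changes among the named genes (-5.51 to -3.01). CG13360 had 0.932, 1.31 and 1.8 CPM at week 3, against 34.2, 4.36 and 19.5 CPM at week 0 (-3.84 ± 0.60, adjusted p 9.9e-05). CG9512, which overlaps Flo2 on the other strand, had 33.8, 33.3 and 41.8 CPM at week 3 and 337, 71.6 and 207 CPM at week 0 (-2.50 ± 0.37, adjusted p 5.4e-05). At week 0, replicate 2 was the lowest and replicate 1 the highest in both genes. Of the 7, 6 also fell in WG2 males (CG7203 by 5.85 on the log2 scale), the exception being Acp1 (-5.34, adjusted p 0.066). In Y160C males the changes of CG13360 (-0.78) and Acp1 (0.30) were the ends of the range, and those of the 7 did not pass the test there. Of 126 cuticle genes tested, 3 fell and 1 rose (median -0.699), with none of the lower called without week 0 replicate 1 or week 3 replicate 1 or 2, and sums of 115 to 143 CPM at week 3 and 118 to 141 CPM at week 0. Over all genes tested 1.84% fell and 3.35% rose, so these counts are not a result about cuticle genes as a family.

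Peptide hormones moved both ways. Ilp3, 1 of the insulin-like peptides of the brain's insulin-producing cells, had the lowest fold change of those called (3L:9801298-9802120). It had 2.14, 2.95 and 3.27 CPM at week 3 and 22.1, 17 and 14.5 CPM at week 0 (-2.68 ± 0.29, adjusted p 9.6e-08). Ilp3 lies wholly inside CG32052 on the other strand, and reads of the pair cannot be told apart. CG32052 had 106, 99 and 114 CPM at week 3 and 142, 152 and 142 CPM at week 0 (-0.45, adjusted p 0.033). The other insulin-like peptides of the same cells did not pass the test. Ilp2 had 91.4, 101 and 111 CPM at week 3 and 96.8, 92.7 and 78.6 CPM at week 0 (0.18 ± 0.22, adjusted p 0.82). Ilp5 had 6.85, 5.85 and 9.6 CPM at week 3 and 14.9, 15.1 and 11.9 CPM at week 0 (-0.91 ± 0.37, adjusted p 0.17), with no overlap of the ages. Of other peptides, looked up after their values were seen, Akh (-3.21, adjusted p 0.24) and Nplp3 (-2.70, adjusted p 0.16) had lower fold changes than Ilp3 without passing the test.

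Of 44 neuropeptide genes tested, 9 rose and 2 fell, Ilp3 and Proc (-0.79). Without week 0 replicate 1 there were 5 higher, without week 3 replicate 3 there were 6, and without the 9 libraries 16 higher and 5 lower. Corazonin (Crz), a stress and growth hormone, had 104, 96.6 and 104 CPM at week 3 and 37.4, 41.5 and 39 CPM at week 0 (1.37 ± 0.16, adjusted p 6.6e-07). Both ages were tight. The satiety peptide Dsk, a cholecystokinin relative made in part by insulin-producing cells, had 118, 104 and 108 CPM at week 3 and 46.8, 53.3 and 47.3 CPM at week 0 (1.16 ± 0.21, adjusted p 0.00068). Dsk overlaps CR33294 on the other strand over 569 bases, and reads of the pair cannot be told apart. The feeding peptide NPF (0.94, adjusted p 0.0022), the sleep-linked Mip (0.88), the clock output peptide Pdf (0.75), and Orcokinin, Hug, Trissin and FMRFa also rose, by 0.61 to 1.01.

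Of the activity-regulated genes 3 rose and 1 fell, with a median of 0.302. Arc1 and Arc2, which encode capsid-forming proteins that carry RNA between cells, rose most, and CrebB rose less (0.47, adjusted p 0.0495). With any 1 library left out 2 were higher. One was lower without week 0 replicate 1 or week 3 replicate 3, and none without the others. Arc1 had 613, 476 and 482 CPM at week 3 and 151, 139 and 130 CPM at week 0 (1.90 ± 0.21, adjusted p 1.5e-07). Arc2 had 4.89, 2.9 and 4.25 CPM at week 3 and 0.914, 1.04 and 0.702 CPM at week 0 (2.18 ± 0.33, adjusted p 5.1e-05). The pseudogene CR10102, which lies between them on 2R, rose by a like amount (1.97 ± 0.23, adjusted p 2.9e-07), and reads of near-identical copies may be shared among the 3. Hr38, an immediate early gene, was uneven within both ages, with 234, 87.7 and 318 CPM at week 3 and 108, 146 and 393 CPM at week 0, and sr, another, fell (-0.87, adjusted p 0.018).

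Of 13 genes for metal-binding proteins 2 rose, Tsf1 and Tsf2 (0.50), and the median was 0, with 1 called whichever library was left out. Transferrin Tsf1, which binds iron in the blood, had 2208, 2052 and 2136 CPM at week 3 and 595, 454 and 320 CPM at week 0 (2.22 ± 0.28, adjusted p 2.4e-06). The enzyme gene Gcat had 16.7, 15.6 and 16.9 CPM at week 3 and 5.9, 4.24 and 2.56 CPM at week 0 (1.96 ± 0.24, adjusted p 6.6e-07). It acts next to Tdh in the breakdown of threonine to glycine. Tdh, picked out after its values were seen, rose alongside (1.99 ± 0.32, adjusted p 0.00016). Of 24 lipid genes 5 rose, and the median was 0.038. The count was 1 without week 0 replicate 2 or week 3 replicate 1, 2 without week 0 replicate 3 and 3 without week 3 replicate 3. The lipid droplet protein Lsd-1 had 16.6, 12.7 and 21.5 CPM at week 3 and 4.78, 2.89 and 3.76 CPM at week 0 (2.16 ± 0.32, adjusted p 4.6e-05), while the triglyceride lipase bmm (0.44) and the triglyceride synthesis gene mdy (0.84) rose by smaller amounts. The lipoprotein apolpp, made by fat body, rose as well (0.86, adjusted p 0.013). Fat body markers summed to 2438 to 2495 CPM at week 3 and 1806 to 2115 CPM at week 0, and 3 of 20 were higher (1 without week 0 replicate 2 or 3 or week 3 replicate 1). These 3 were Lsd-1, bmm and apolpp, already named, so the list is not a separate reading of fat body. In the sum apolpp had 1285, 1263 and 1165 CPM at week 3 and 769, 607 and 668 CPM at week 0. The part of fat body in these rises was not tested.

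Stress genes rose selectively. Among 18 genes of the Hsp70 family and other large chaperones 4 rose, Hsp68, Hsp70Ab, Hsp83 and the co-chaperone Stip1. Of these 18, 2 were called without week 0 replicate 2 or 3 or week 3 replicate 1 or 3. Hsp68 had 21, 16.1 and 20 CPM at week 3 and 7.73, 5.59 and 5.67 CPM at week 0 (1.59 ± 0.21, adjusted p 3e-06). The small heat shock genes Hsp67Bc (-1.29 ± 0.16, adjusted p 2.4e-06) and Hsp67Ba (-0.90) went the other way and fell. These 2 were called whichever library was left out. The other members of their list were not called. They stood on both sides, as with Hsp27 (0.57, adjusted p 0.40) and Hsp23 (-0.15, adjusted p 0.84). Hsp67Bc had 9.23, 8.75 and 8.29 CPM at week 3 and 24.7, 18.5 and 20.9 CPM at week 0.

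Xrp1, a stress transcription factor induced by DNA damage and ribosome faults, had 601, 416 and 598 CPM at week 3 and 208, 237 and 280 CPM at week 0 (1.16 ± 0.20, adjusted p 0.00032). Week 3 replicate 2 was the lowest of its group and still above all week 0 libraries. Ku80, a DNA end-joining protein, rose to 14.2, 16.8 and 14.6 CPM at week 3, against 9.06, 8.73 and 9.13 CPM at week 0 (0.76, adjusted p 0.00016). Gadd45, another damage-responsive gene, rose by 0.98 (adjusted p 0.0045), so that 3 of 16 genes for cell death and DNA damage were called. Of 35 glutathione transferases, which conjugate toxins, 6 rose and GstE13 fell. GstE1 (1.19, adjusted p 0.0015) and GstD9 (1.31, adjusted p 0.0067) were among those that rose. With 1 library left out 1 to 4 were higher, fewest without week 0 replicate 3, and 1 was lower without week 3 replicate 3 but none without the others.

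Immune genes rose in small number. Of 50 recognition and signalling genes, 6 rose, including the complement-like Tep2 (0.86, adjusted p 0.0036), the Toll factor dl (0.50) and the Imd feedback inhibitor pirk (1.60). The count was 3 without week 0 replicate 2 or 3 or week 3 replicate 2 or 3, and 4 without week 3 replicate 1. Of 38 antimicrobial peptide genes only BomS6 (2.32, adjusted p 0.011) and BaraC (0.89) were called, although 30 had a positive sign and the median was 0.839. Neither was called without week 0 replicate 2 or 3 or week 3 replicate 1. Peptides that fight bacteria differed widely between libraries, as in Mtk, with 3.26, 1.2 and 5.78 CPM at week 3 and 0.422, 1.47 and 0.753 CPM at week 0 (not called, adjusted p 0.41). The stress peptide TotA had 7.69, 8.04 and 6.16 CPM at week 3 and 1.69, 0.799 and 1.25 CPM at week 0 (2.55 ± 0.43, adjusted p 0.00026), with the other 7 Turandot genes not called.

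In the lysosome, where Naglu acts, 6 of 47 genes rose, with a median of -0.031 over the list. The count was 3 without week 0 replicate 2 or week 3 replicate 1 or 3, and 9 without the 9 libraries. The 6 were the mannosidases LManI and LManII, which trim glycans, the lipase Lip4, ceramidase CDase and the sterol-binding Npc2b and Npc2g. LManI had 12.4, 10.3 and 11.8 CPM at week 3 and 6.04, 3.32 and 3.31 CPM at week 0 (1.45 ± 0.29, adjusted p 0.0015). Of 9 genes that degrade heparan sulfate only Ids, the iduronate sulfatase, was called, with 12.4, 12 and 12.2 CPM at week 3 and 9.56, 4.42 and 5.27 CPM at week 0 (0.94 ± 0.22, adjusted p 0.0073). Its call was lost without week 0 replicate 2 or 3. Sgsh, the sulfamidase of the same pathway, differed by -0.03 (adjusted p 0.98). Of 15 genes of the proton pump that acidifies lysosomes and synaptic vesicles 4 fell, Vha68-1 the most (-0.71 ± 0.17, adjusted p 0.011). None was called without week 0 replicate 1 or week 3 replicate 1, at most 2 without another library, and 12 without the 9 libraries.

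Many small RNAs of the nucleolus rose. Guides for pseudouridylation direct the change of uridine to pseudouridine in ribosomal and spliceosomal RNA and are mostly cut from introns of host genes. Of 95 tested, 35 rose, 90 had a positive sign, and the median was 1.447. Of the methylation guides 5 of 28 rose, of other snoRNAs 17 of 47 and of spliceosomal snRNAs 12 of 28. Summed over the pseudouridylation guides, the level was 1862, 718 and 1810 CPM at week 3 and 309, 374 and 555 CPM at week 0. Week 3 replicate 2 stood well below the other 2 libraries of its age, near week 0 replicate 3. Accordingly the count of guides called was 47 without that library, but 9 without week 3 replicate 1 and 10 without replicate 3. It was 9 without week 0 replicate 1, 10 without replicate 2 and 23 without replicate 3. Of the methylation guides none was called without week 0 replicate 1, and 1 was called without week 0 replicate 2 or without week 3 replicate 1 or 3.

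The 4 copies snoRNA:Psi18S-1377b, snoRNA:Psi18S-1377c, snoRNA:Psi18S-1377d and snoRNA:Psi18S-1377e, which lie in introns of the ribosomal protein gene RpS7 on 3R, kept their call in all 21 other settings. The first of them, snoRNA:Psi18S-1377b (3R:30207493-30207630), had 51.2, 39.6 and 38.9 CPM at week 3 and 4.92, 5.72 and 6.62 CPM at week 0 (2.90 ± 0.25, adjusted p 5e-10). The host RpS7 had 604, 547 and 608 CPM at week 3 and 458, 381 and 366 CPM at week 0 (0.54 ± 0.17, adjusted p 0.051) and did not pass the test. Reads of unspliced RpS7 RNA and of the snoRNAs inside it cannot be told apart in these counts. Of 86 cytosolic ribosomal protein genes 80 had a positive sign, with a median of 0.364, and 3 rose, RpS2, RpS9 and RpS24. That share was 3.49%, against 3.35% of all genes. The count was 39 without the 9 libraries and 10 with RLE factors. With 1 library left out it ran from 0 to 3, with none called without week 0 replicate 2 or 3 or week 3 replicate 1 or 3 and 1 without week 3 replicate 2. Ntl, a gene of the neurotransmitter transporter family, showed 587, 311 and 524 CPM at week 3 and 14.5, 23.1 and 46.4 CPM at week 0 (4.08 ± 0.80, adjusted p 0.0016), but a tyrosine tRNA gene lies within it (tRNA:Tyr-GTA-1-9, 4.06) and the reads cannot be assigned to one or the other.

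The changes with age in W422X males were then set beside those in WG2 males, which share no library with them. In WG2 males 375 genes (2.37%) were called, 282 higher (1.78%) and 93 lower (0.588%). Of the 820 genes called in W422X males, 276 were also called in the same direction in WG2 males, 33.7% of the W422X and 73.6% of the WG2 list, and 0 were called in the opposite direction. By sign alone 99.3% of the 820 moved the same way in WG2 males, and 77.4% of all genes did. A test of the difference between the 2 changes called 0 genes of 15807 (0%) with edgeR, 0 with limma-voom and 2 with DESeq2, while 170 genes had an unadjusted p under 0.05. For Ilp3 the difference, W422X minus WG2, was -0.77 ± 0.41, for Gad1 -0.12 ± 0.24, for ATPsynC -0.27 ± 0.26 and for Col4a1 -0.65 ± 0.34 (SE; adjusted p 1 for each). For TotA it was 1.67 ± 0.63 and for Hsp67Ba -0.81 ± 0.22 (adjusted p 1 for both), so that differences of this size did not pass at 3 libraries a group.

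**Figure D4:**
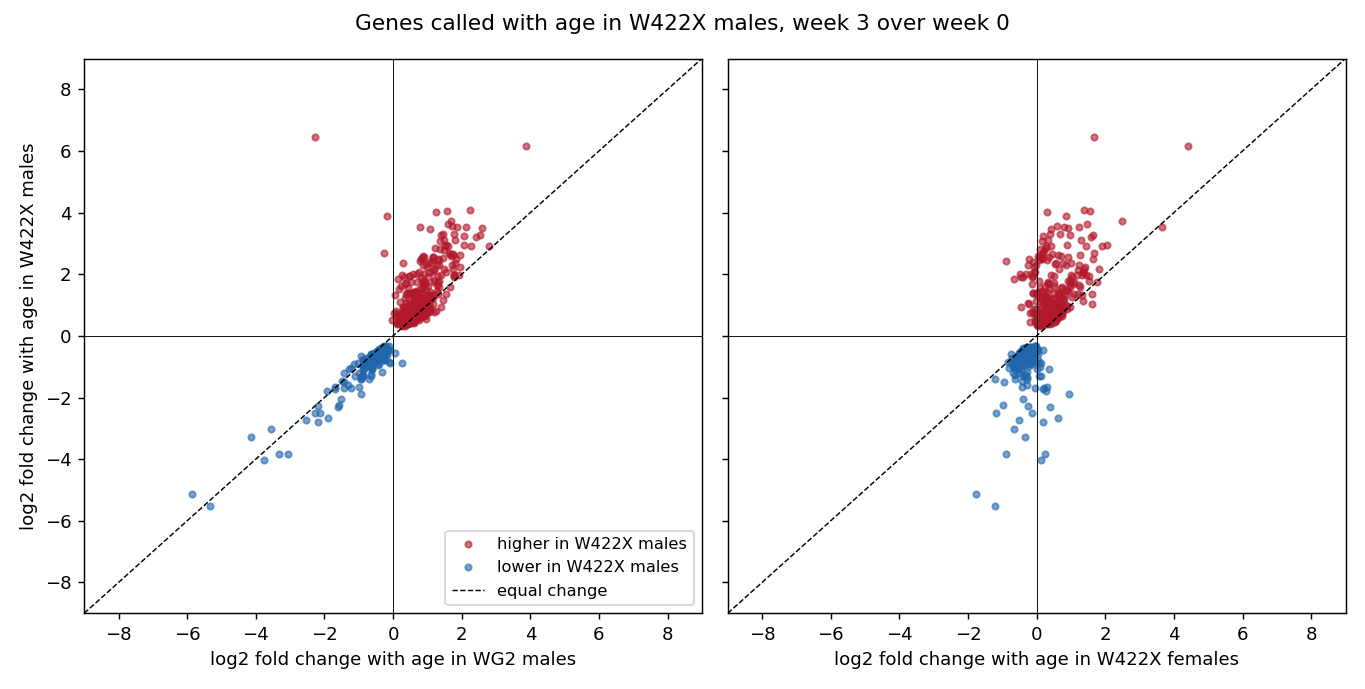
Log2 fold change with age of the genes called in W422X males (vertical axis) against their change in WG2 males (left) and W422X females (right), with genes higher in W422X males in red and lower ones in blue. Since the genes were picked for their change in W422X males, larger values on the vertical axis follow from that choice; 99.3% share their sign with WG2 males and 93.2% with W422X females, and 1 gene, lncRNA:CR44414 at -11.66, lies outside the axes.

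In KO males 235 genes (1.49%) were called with age, 98 higher (0.62%) and 137 lower (0.867%). In Y160C males 278 (1.76%) were called, 226 higher (1.43%) and 52 lower (0.329%). Of the 820, 175 were also called in the same direction in KO males (21.3% of the W422X and 74.5% of the KO list) and 169 in Y160C males (20.6% of the W422X and 60.8% of the Y160C list). By sign 97.3% of the 820 moved the same way in KO males and 98.3% in Y160C males. Of all genes 57.1% and 64.1% did. Over all genes the changes correlated with r of -0.202 for KO males and 0.163 for Y160C males, against 0.501 for WG2 males. Among the 820, picked for their change in W422X males, r was 0.812, 0.788 and 0.859 in the same order. The 2057 genes annotated as ncRNA had a median of -0.24 in W422X males and 0.994 in KO males. It was 0.153 in Y160C males and -0.803 in WG2 males. The part of these genes in r was not tested. In all 3 other male groups, 47 of the higher and 27 of the lower genes were called the same way. These 74 genes included Ilp3, Col4a1, vkg, Gad1, ATPsynC, Atpalpha, kdn, SerT and Hsp67Bc among the lower, and Arc1, Arc2, Tsf1, Crz, Mip, Treh, Hsp68, Xrp1, Gcat, Tdh and Ekar among the higher. A further 271 higher and 165 lower genes were called in none of the 3, which does not show that they differ there.

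Against KO males the test of the difference called 1 gene (0.00633%), Lsd-1. In KO males it had 8.42 ± 2.30 CPM at week 3 and 10.3 ± 3.78 CPM at week 0, and the difference, W422X minus KO, was 2.46 ± 0.45 (SE; adjusted p 0.0423). TotA rose in the other mutant males too, to 32.5 ± 11 CPM at week 3 in KO males against 1.76 ± 0.94 CPM at week 0 (4.20), and to 61.3 ± 26.1 CPM at week 3 in Y160C males against 2.83 ± 0.93 CPM at week 0 (4.42), while in WG2 males it was not called (0.89, adjusted p 0.372). For TotA the difference of KO or Y160C males from WG2 males was not tested, and that of W422X males from WG2 males, given above, did not pass. The difference of TotA between W422X and KO males was -1.64 ± 0.59 and did not pass (adjusted p 0.915). The 2 KO male week 3 libraries with over 12000 genes at 1 CPM are part of these values. Without the 9 such libraries edgeR called 0 genes, while over all libraries 591 had an unadjusted p under 0.05, DESeq2 called 3 and limma-voom 0. The count was also 0 when any 1 W422X male library, any 1 KO male week 3 library or KO male week 0 replicate 2 was left out, and 2 without KO male week 0 replicate 1.

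**Figure D5:**
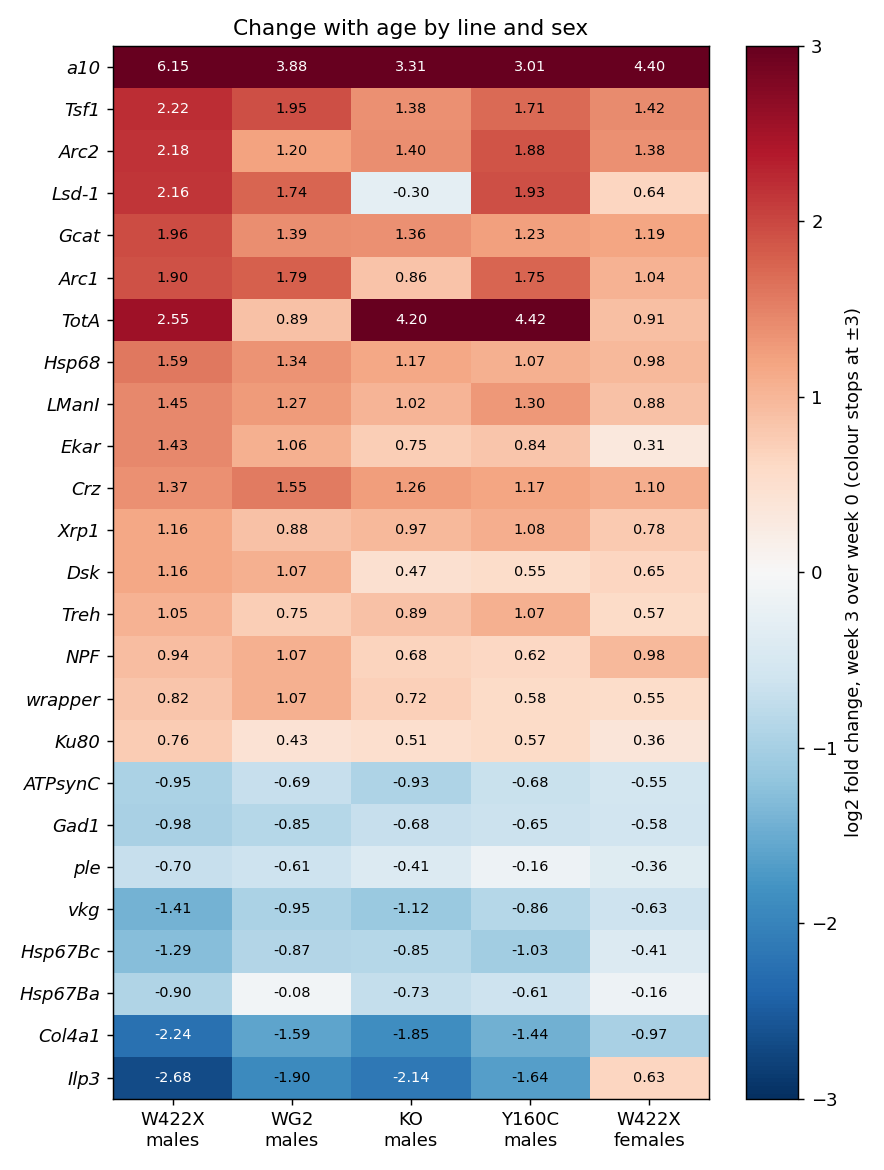
Log2 fold change with age (week 3 over week 0) of 25 genes named in the text, by genotype and sex, with the value printed in each cell and the colour stopping at 3 on either side. W422X males are in the left column; Ilp3 is lower in the 4 male columns (-2.68 to -1.64) and not in W422X females (0.63), and Lsd-1 has its only negative value in KO males (-0.30).

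In W422X females 57 genes (0.361%) were called, 51 higher (0.323%) and 6 lower (0.038%), with 38 of them in the same direction as in W422X males (66.7% of the female and 4.63% of the male list). By sign 93.2% of the 820 moved the same way in females, and 54.1% of all genes did. The correlation of the changes in the 2 sexes over all genes was negative (r of -0.303). Among the 820, picked for their change in males, r was 0.651. Genes annotated as ncRNA had a median of 1.336 in females and -0.24 in males, and their part in r was not tested. Col4a1 (-0.97, adjusted p 0.0794), Gad1 (-0.58) and ATPsynC (-0.55) had negative values in females without passing the test, and the difference from males did not pass for any of them. The test of the difference between the sexes called 3 genes (0.019%). Ilp3 was 1 of them: females had 33.9 ± 10.8 CPM at week 3 and 21.9 ± 4.21 CPM at week 0, and the difference, males minus females, was -3.31 ± 0.39 (SE; adjusted p 4.28e-06). The ages were thus ordered in opposite ways in the sexes, although the female change of 0.63 was not itself called (adjusted p 0.454). Ekar, which encodes a kainate-type glutamate receptor, rose in males to 38.5, 44.1 and 33.6 CPM at week 3, against 14.2, 14.9 and 13.9 CPM at week 0 (1.43), while females had 28 ± 2.1 CPM at week 3 and 22.5 ± 1.18 CPM at week 0 (difference 1.12 ± 0.22, adjusted p 0.0431). The third, FBgn0029128, had 19, 21.7 and 19.7 CPM at week 3 and 50, 67.5 and 64.5 CPM at week 0 in males (-1.59), and 23.1 ± 4.52 CPM at week 3 and 27.9 ± 2.13 CPM at week 0 in females (difference -1.32 ± 0.24, adjusted p 0.0222). Of these 3, Ilp3 alone passed in all 21 other settings, with differences between -3.57 and -3.14. Ilp3 was the 1 gene called without W422X female week 3 replicate 1, which had over 12000 genes at 1 CPM. The count was also 1 without female week 0 replicate 1 or 2 and without male week 0 replicate 2 or 3.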

How the data were processed

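RNA-seq counts were used for 48 brain libraries, 6 of them from W422X males. The authors deposited whole-number read counts per gene with a gene length beside them. The submitters' processing notes name Subread, with no version; the aligner, genome build, strand setting and read filters are not given in the sources used here. Of 17490 gene identifiers, 17288 matched a symbol and position in BDGP6.54. Because the strand setting is not given, reads of overlapping genes cannot be told apart. No column belonged to other samples (0).

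In R 4.3.3 with edgeR 4.0.16, filterByExpr (minimum count 10, minimum total 15) kept 15807 genes and dropped 1683. TMM factors scaled the library sizes, and levels are CPM (counts per 1e6) on those sizes. All 48 libraries entered 1 quasi-likelihood model with 16 group means (glmQLFit, robust, 32 residual degrees of freedom), and a Benjamini-Hochberg adjusted p under 0.05 was the call. The SE comes from dividing a log2 fold change by the root of its F statistic. Differences of age changes were contrasts of the same model. DESeq2 1.42.0, limma-voom (limma 3.58.1), RLE factors, other filters, smaller models and left-out libraries were alternatives. Where 1 library was left out, counts of age changes in the report are with the TMM reference library held. This alternative was added after seeing the data, as was leaving out the 9 libraries. The reference of the whole fit was W422X male week 0 replicate 1. In the fit without it, W422X male week 0 replicate 2 was the reference instead. For differences of age changes edgeR chose the reference anew in each fit. On simulated counts over 15677 genes the test recovered 78 of 100 genes changed 2-fold and 96 of 100 changed 4-fold, with 3 false calls. The changed genes were drawn only from those above a floor of fitted week 0 counts, with the spread that the model had fitted. These recoveries therefore do not hold for weakly expressed genes. In the data, of 5668 genes with a mean under 1 CPM, 8 were called higher and 0 lower.

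The comparison and the 56 gene lists were chosen with earlier results of these data known, so no list count is independent evidence; 16 list entries matched no gene. The rule for named genes took Naglu, the 15 highest and 15 lowest fold changes among calls (mean of at least 1 CPM, groups apart), up to 10 with the smallest p in each direction, up to 3 called members per list and direction by p, and up to 8 called per difference of age changes. Other list members and genes are named after their values were seen. Replicate numbers, also those of the replicate block, are the ones in the sample titles; same-numbered libraries of the 2 ages did not deviate together (r of -0.08, 0.17 and 0.055). The deposited column names number the week 3 libraries 1, 3 and 4 and the week 0 libraries 1, 2 and 3; by those the shared numbers gave r of -0.08 and -0.201. The numbers were not used as pairs.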

Additional observations from a re-analysis of the deposited data

Results flagged for a closer look

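Among the changes with age, 4 differed between W422X males and another group in a test of the difference itself. Ilp3 had the largest of them, with a difference of males minus females within W422X of -3.31 on the log2 scale (SE 0.39, adjusted p 4.28e-06 from edgeR); it was lower in all 3 male week 3 libraries than in any male week 0 library. The gene FBgn0029128 had a difference of -1.32 between the same groups and lost its call in 9 of 21 other settings. Ekar had a difference of 1.12 and lost its call in 16 of 21 settings. Lsd-1 had a difference of 2.46 for W422X males minus KO males and lost its call in 15 of 21 settings, including the one without the 9 libraries with over 12000 genes at 1 CPM, 2 of which are KO male week 3 libraries; their part in the difference was not tested further.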

How the results depend on the processing

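No named gene changed sign in any of 21 other settings (0 of 147), and 58 kept their side of the threshold in all of them, while 89 lost their call in at least 1. The number of genes called with age in W422X males moved more. DESeq2 called 1748 (819 higher, 929 lower), RLE factors 1348 (718 lower), a model of the W422X male libraries alone 1707 (963 lower), no filter on low counts 545 (183 lower), and the fit without the 9 libraries 1918 (1066 higher, 852 lower). Leaving out 1 library gave up to 1019 calls, 147 to 556 higher and 159 to 740 lower when edgeR chose the TMM reference anew. Without any week 3 library that reference was a KO female week 3 library with over 12000 genes at 1 CPM, and the median of all genes shifted by -0.175 to -0.159, so that 18.5% to 27.4% of calls were higher. With the reference held the counts were 338 to 531, 231 to 382 higher and 107 to 191 lower. Week 0 replicate 1 was itself the reference of the whole fit, so without it week 0 replicate 2 was used. That fit called 506 genes, against 768 with the reference that edgeR chose. The replicate block, with the 6 libraries only, gave 1794 calls (830 higher, 964 lower), but the numbers are not known to mark anything shared. For the difference to WG2 males DESeq2 called 2 genes, the replicate block 0, and leaving out 1 library 0 to 1. For the difference to W422X females DESeq2 called 11, the groups compared alone 1, the replicate block 1, the fit without the 9 libraries 1, and leaving out 1 library 1 to 3. For the difference to KO males DESeq2 called 3, limma-voom 0, RLE factors 0, the replicate block 2, the fit without the 9 libraries 0, and leaving out 1 library 0 to 2. The causes of these shifts, other than the changed libraries and factors themselves, were not tested.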

Other observations

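A single library made the lowest fold change of all called genes. The RNA lncRNA:CR44414 stood at 726.3 CPM in week 0 replicate 3 and at no more than 0.109 CPM in the other 5 W422X male libraries (log2 fold change -11.66, adjusted p 0.00041), and the groups overlapped. The clock gene vri, a transcriptional repressor, had 46.5, 20 and 48.8 CPM at week 3 and 7.38, 8.11 and 20.1 CPM at week 0 (1.68 ± 0.40, adjusted p 0.0095), with an overlap of the ages, and was the only 1 of 12 clock genes called; the hour of dissection is not given in the labels. The antennal protein gene a10 had 5.92, 12.7 and 4.31 CPM at week 3 and 0.211, 0.0615 and 0.0502 CPM at week 0 (6.15 ± 1.01, adjusted p 0.00016) and rose with age in every group compared here, by 3.01 to 4.40 on the log2 scale in the others.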
